A study of Homo sapiens with 8 samples.

Results

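Arginine starvation moved 32 genes in opposite directions in MDA-MB-231 breast cancer cells and in ρ0 cells, a derivative of the same line that lacks mitochondrial DNA. Of these, 9 rose in parental cells and fell in ρ0 cells, and 23 fell in parental cells and rose in ρ0 cells. The genes were selected on the starvation values themselves. Counts were divided by the library total and multiplied by 1000000 (CPM), averaged over the 2 libraries of each group, and the ratio (starved + 0.5) / (control + 0.5) had to be at least 2 in 1 line and at most 0.5 in the other. The table listed 23393 genes, of which 13131 reached a mean of at least 2 CPM in at least 1 group. The genes ID1 to ID4 were left out of the selection, and with them the group of 9 would have held 10. Because both starvation contrasts chose these genes, their changes are given below as descriptions and carry no test.

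The study held 4 groups of 2 RNA-seq libraries. Parental MDA-MB-231 cells, a triple-negative breast cancer line, were grown in full medium (control) or starved of arginine for 48 h (starved), and ρ0 cells of clone 27 were taken under the same conditions. According to the labels, starvation meant arginine deiminase (ADI), an enzyme that degrades arginine, at 0.3 µg/mL for 48 h, whereas the methods of the study describe medium made without arginine. The ρ0 cells were kept in medium with pyruvate, uridine and ethidium bromide, so that the line is 1 clone with its own medium and history, and these cannot be told apart from the loss of mitochondrial DNA. That loss itself was not analysed here. The sources do not say that the libraries of a group came from separate cultures, so that errors and p-values measure only the spread between these libraries. In bulk RNA, fewer cells with a transcript and less of it per cell cannot be told apart.

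Arginine is a conditionally essential amino acid, and cells that do not make it depend on the medium. Amino acid loss activates the kinase GCN2 and the transcription factor ATF4 and silences mTORC1, which releases autophagy from inhibition. Cytokine genes such as IL1B, IL6 and the CXCL chemokines are transcribed through NF-κB and AP-1 and are known to be highly active in MDA-MB-231 cells. Mitochondria feed into these programs through ATP, aspartate and reactive oxygen species.

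The libraries held 25259503 to 31022155 counts. Mesenchymal markers of MDA-MB-231 (VIM, CD44, AXL, CAV1, MSN and ZEB1) were present in every group, and ESR1 and PGR were at or near 0. The lines differed in epithelial genes before starvation, in either direction. CDH1 was at a mean of 0.0323 CPM in parental and 15.1 CPM in ρ0 control cells and EPCAM at 0.507 and 23.2 CPM. The luminal markers GATA3 (4.87 and 16.7 CPM), KRT19 (49.0 and 143 CPM) and TFF1 (0.123 and 5.49 CPM) were also higher in ρ0 controls. FOXA1, another factor of luminal cells, went the other way, at 7.93 and 0.0337 CPM. ASS1, an enzyme of arginine synthesis from citrulline, was at 0.218 CPM in parental and 9.02 CPM in ρ0 control cells. In starved cells it was at 0.0532 CPM in parental and 21.7 CPM in ρ0 cells. Whether the lines were equally short of arginine was not tested. The ρ0 control libraries stood apart from each other. Of the 13131 genes, 23.2% differed by more than 1.5-fold between them, against 2.09%, 3.47% and 3.03% in the parental control, parental starved and ρ0 starved pairs. Among the 32 genes, 12 differed by more than 1.5-fold between the ρ0 controls, and in 11 of the 12 replicate 1 was the library nearer to the starved mean. Over all 3040 genes that differed this much, replicate 1 was nearer in 47.4%.

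The 2 directions were rare among all genes. The 9 genes up in parental and down in ρ0 cells were 0.0685% of the 13131 genes, and the 23 genes down in parental and up in ρ0 cells were 0.175%. Changes of at least 2-fold in a shared direction were more frequent, with 1.39% of genes up in both lines and 5.27% down in both. In parental cells 1128 genes reached 2-fold up and 3042 reached 2-fold down, against 366 and 1097 in ρ0 cells. The median log2 ratio over the 9 genes was 1.5 in parental and -1.20 in ρ0 cells. Over the 23 genes it was -1.38 and 1.20, beside -0.18 and -0.08 over all 13131 genes.

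**Figure D1:**
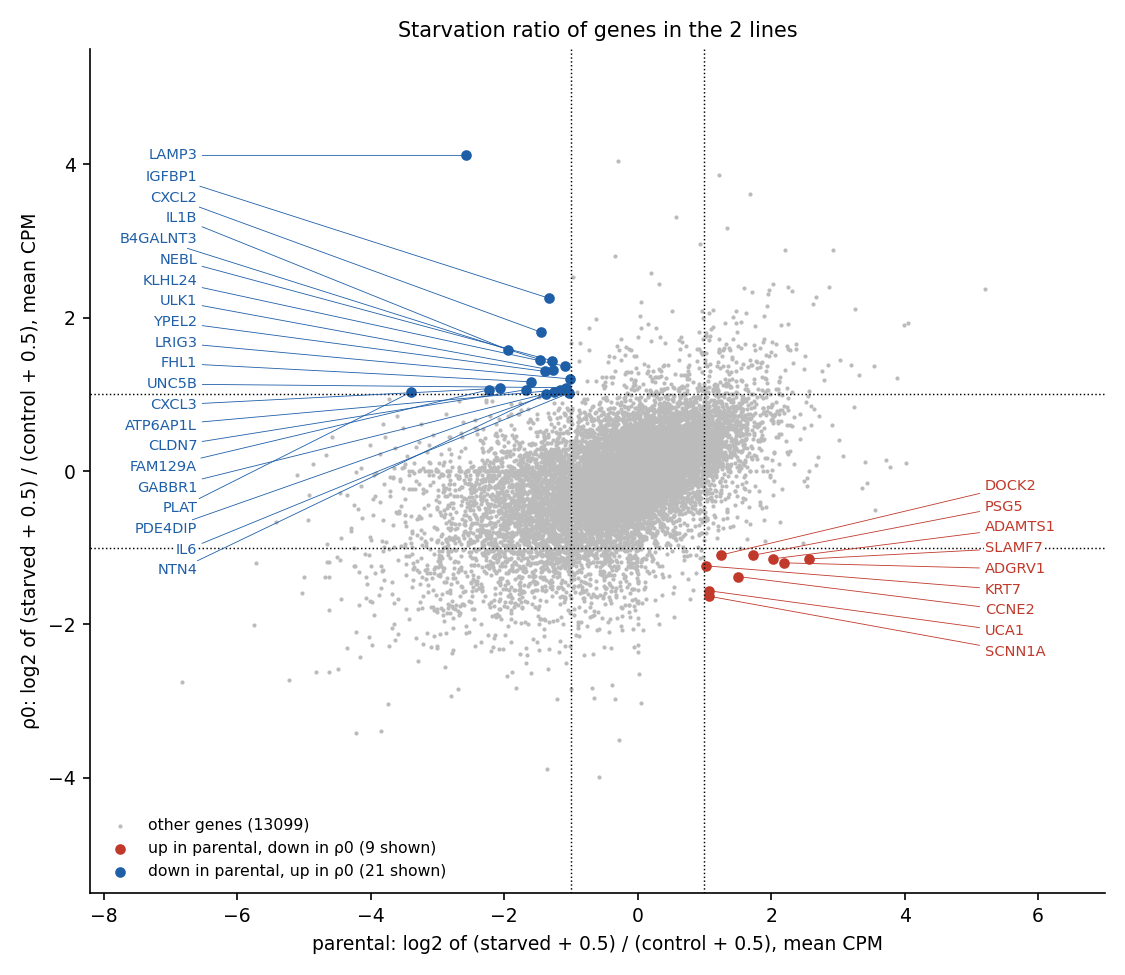
Each point is 1 gene, with the log2 starvation ratio in parental cells on the x axis and in ρ0 cells on the y axis, and dotted lines at 2-fold. The 9 genes in red lie to the lower right and 21 of the 23 genes in blue to the upper left, where LAMP3 lies farthest from the other genes.

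A quasi-likelihood test (edgeR) over 15262 genes tested all 32. Both lines were called, in the opposite directions of the selection and at an adjusted p under 0.05, for 8 of the 9 genes and 22 of the 23. Over all genes tested, 1.65% were called higher in parental and lower in ρ0 cells and 1.99% the reverse. Since the selection used these contrasts, the counts are printed for reference only. The exceptions were ADAMTS1, which was called in parental cells only, and YPEL2, which was called in neither line. The starved and control libraries did not overlap in either line for 8 of the 9 genes (ADAMTS1 overlapped in ρ0 cells) and for all 23 of the others. Over the 13131 genes, 5.86% lay apart in this way with parental higher and ρ0 lower after starvation and 7.9% in the reverse way, and nothing is read from the members' counts, since a 2-fold selection in both lines largely fixes them.

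**Figure D2:**
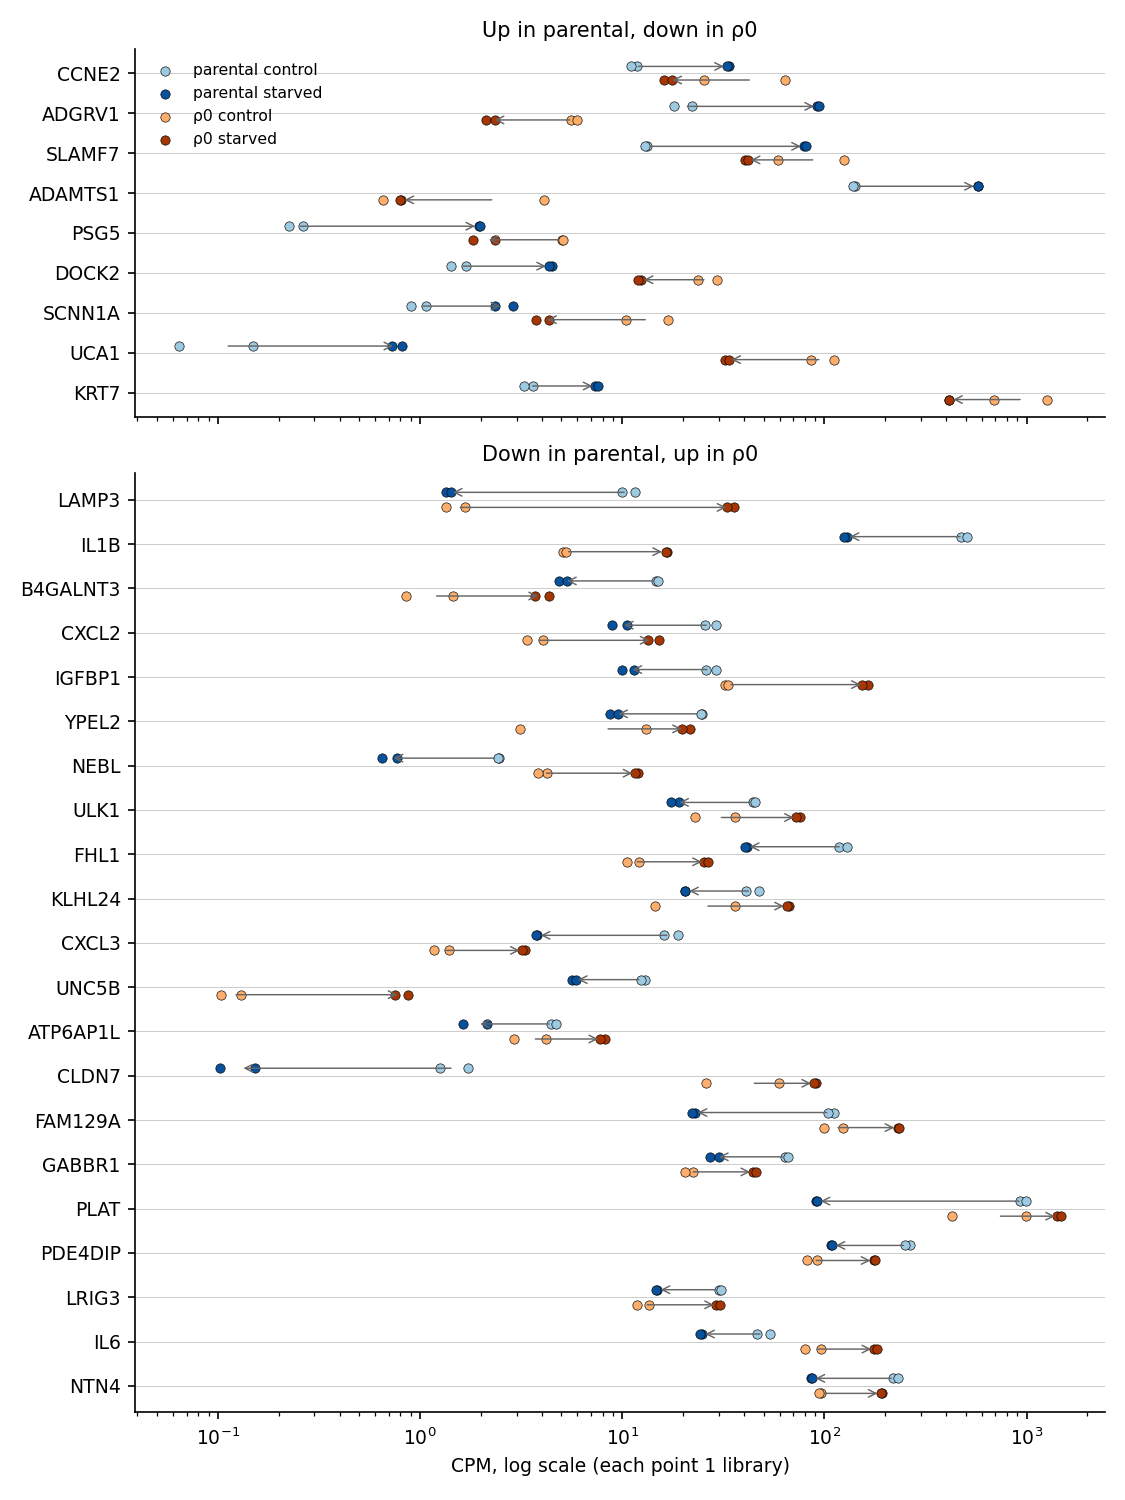
CPM on a log scale for 30 of the 32 genes, with 1 point per library in 4 groups and arrows from the control mean to the starved mean in each line. The upper panel shows the 9 genes up in parental and down in ρ0 cells and the lower panel 21 of the 23 genes of the reverse direction, and the ρ0 control points of ADAMTS1, YPEL2, CCNE2 and KLHL24 are the most widely spaced.

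The genes that fell in parental and rose in ρ0 cells included inflammatory signals. IL1B, the fever-inducing cytokine interleukin-1β, measured 473 and 509.8 CPM in parental control cells and 129 and 125 CPM after starvation, a 3.85-fold fall. In ρ0 cells IL1B measured 5.09 and 5.26 CPM in control and 16.6 and 16.4 CPM in starved libraries, a 2.99-fold rise. Its level stayed far lower in ρ0 than in parental cells under both conditions, with means of 5.18 ± 0.123 against 492 ± 25.8 CPM in control and 16.5 ± 0.0985 against 127 ± 2.91 CPM in starved cells (SD, n = 2). The fitted log2 fold changes were -1.79 (SE 0.08) in parental and 1.75 (SE 0.09) in ρ0 cells.

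IL6, a cytokine that signals through STAT3, was expressed in both lines and lay close to the selection limit. It fell from 46.7 and 54.0 to 24.8 and 24.2 CPM in parental cells and rose from 95.8 and 80.1 to 176 and 181 CPM in ρ0 cells, with log2 ratios of -1.02 and 1.02. In each line the starved libraries of IL6 lay closer together than the control libraries, and the groups did not overlap. IL6 left the selection without parental control replicate 2, ρ0 control replicate 2 or ρ0 starved replicate 2. It also left the selection with other scalings of the library sizes. The fitted log2 fold change in parental cells was -0.88 (SE 0.12), less than 2-fold.

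The neutrophil-attracting chemokines CXCL2 and CXCL3 moved with these cytokines. CXCL2 was at 25.5 and 29.1 CPM in parental control and 10.5 and 8.92 CPM in parental starved libraries, against 4.05 and 3.40 and 15.2 and 13.5 CPM in ρ0 cells. CXCL3 fell from 16.0 and 18.8 to 3.79 and 3.75 CPM in parental cells, and rose from 1.38 and 1.18 to 3.32 and 3.21 CPM in ρ0 cells. The rise of CXCL2 in ρ0 cells was 3.50-fold and that of CXCL3 2.11-fold, and in parental cells they fell 2.72-fold and 4.20-fold. After starvation the levels of each chemokine in the 2 lines were nearer each other than in control medium, at means of 9.73 and 14.3 CPM for CXCL2 and 3.77 and 3.26 CPM for CXCL3. Of 50-base windows in the longest CXCL2 transcript (GENCODE 29), 9.24% also occurred in transcripts of other genes, CXCL1 above all, and 3.02% of CXCL3 windows did, CXCL2 above all, so that reads in these stretches may be split between the chemokines.

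CXCL2 and CXCL3 were also the only genes among those with a promoter sequence that held the NF-κB letters searched, and the 250 bases before their starts are shown for that reason (RefSeq, GRCh38.p14, minus strand, 5′ to 3′). The window of CXCL2 was chr4:74099196-74099445 and that of CXCL3 chr4:74038690-74038939. Capitals mark matches to GAAANNGAA, an interferon response motif, and further downstream to GGAATTTCC, an NF-κB motif. The pair was identical at 196 of 267 aligned columns, or 73.4%.
CXCL2: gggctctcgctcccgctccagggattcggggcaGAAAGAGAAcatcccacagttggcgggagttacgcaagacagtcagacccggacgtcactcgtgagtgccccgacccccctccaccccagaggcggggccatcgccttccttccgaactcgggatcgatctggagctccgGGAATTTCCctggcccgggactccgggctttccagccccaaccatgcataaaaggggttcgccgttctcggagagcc
CXCL3: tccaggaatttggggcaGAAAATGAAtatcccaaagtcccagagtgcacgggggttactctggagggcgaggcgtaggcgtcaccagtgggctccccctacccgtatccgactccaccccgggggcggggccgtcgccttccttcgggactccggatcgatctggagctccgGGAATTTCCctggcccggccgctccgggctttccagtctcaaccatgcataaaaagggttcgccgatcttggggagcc
In both promoters the same NF-κB letters began at position -77 in CXCL2 and -78 in CXCL3, counted from the start. Such a match describes letters and is not evidence of binding. Only exact letter strings were searched, so that other forms of the motif in the remaining promoters, such as those of IL6 and IL1B, would be missed.

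Relatives of these cytokines that the selection did not take moved in several ways. CXCL8, the chemokine interleukin-8, was just outside the limit with a parental log2 ratio of -0.97. Its mean fell from 482 to 247 CPM in parental cells and rose from 20.6 to 122 CPM in ρ0 cells (edgeR adjusted p = 0.00218 and 0.000109). CXCL1 had an edgeR log2 fold change of -3.71 (SE 0.35) in parental cells (adjusted p = 8.00e-05) and rose in ρ0 cells by 1.09 (SE 0.34) with an adjusted p of 0.0372. IL1A, the sister gene of IL1B, rose in ρ0 cells from 4.15 and 3.07 to 67.4 and 67.2 CPM, with an edgeR log2 fold change of 4.30 (SE 0.15). In parental cells IL1A measured 80.1 and 85.1 CPM in control and 66.2 and 68.3 CPM in starved libraries, a log2 fold change of -0.14 (SE 0.12) that did not pass edgeR's test (adjusted p = 0.344).

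Other relatives were not called in opposite directions. IL24, a cytokine of the interleukin-10 family, was called higher in both lines, with edgeR log2 fold changes of 2.41 (SE 0.57) in parental (adjusted p = 0.00684) and 2.51 (SE 0.58) in ρ0 cells (adjusted p = 0.0119). LIF, a cytokine of the interleukin-6 family, was also called higher in both, by 0.55 (SE 0.11) and 1.16 (SE 0.11) (adjusted p = 0.00246 and 0.000303). CXCL5 fell in parental cells from 2.52 and 2.36 to 0.0383 and 0.0341 CPM (edgeR adjusted p = 6.81e-05) and was at 0.0346 and 0 CPM in ρ0 control and 0.0322 and 0 CPM in ρ0 starved libraries, too few counts for a change to be seen.

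**Figure D3:**
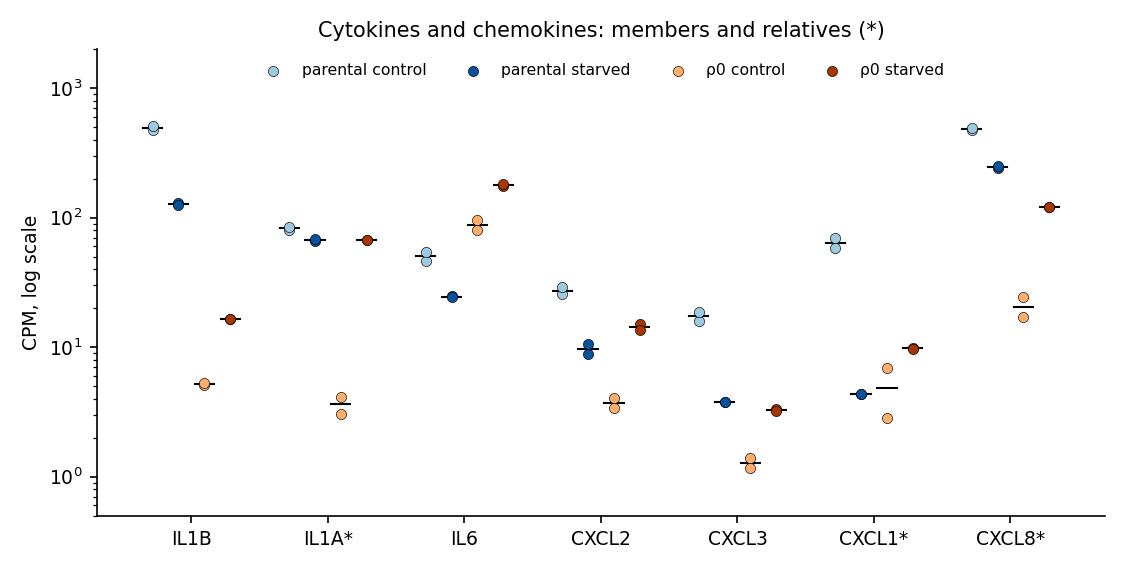
CPM on a log scale for 4 of the 32 genes and 3 of their relatives (asterisks), with 1 point per library and bars at the group means. For all 7 genes the starved points lie below the control points in parental cells and above them in ρ0 cells.

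The wider list of cytokines, chemokines and NF-κB targets held 38 tested genes, 4 of which are among the 32. In parental cells 7 of the 38 were called higher and 20 lower, beside 30.4% and 35.5% of all genes tested (edgeR, adjusted p under 0.05). In ρ0 cells 20 were called higher and 4 lower, beside 19.2% and 22.1% of all genes. The 4 became 9 without ρ0 control replicate 2, and 1 and 0 without ρ0 starved replicates 1 and 2. The median log2 fold change over the list was -1.08 in parental and 0.63 in ρ0 cells, beside -0.07 and -0.02 over all genes. A total of 8 list genes were called lower in parental and higher in ρ0 cells. These were the 4 selected genes together with CXCL1, CXCL8, BIRC3, which inhibits apoptosis, and PTGS2, the inducible cyclooxygenase.

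Secreted and matrix proteins made up a further group. NTN4, a netrin related to laminin chains, was at 219 and 230.4 CPM in parental control and 85.5 and 86.8 CPM in parental starved cells. In ρ0 cells it rose from 96.6 and 93.9 to 193 and 191 CPM, a log2 ratio of 1.01 that was the smallest among the 23 genes. UNC5B, a receptor for netrins, fell from 12.9 and 12.4 to 5.63 and 5.89 CPM in parental cells and was at 0.104 and 0.131 CPM in ρ0 control and 0.870 and 0.752 CPM in ρ0 starved cells. The ρ0 values of UNC5B rest on 7 counts in control and 46 counts in starved cells, a rise of 6.94-fold without a pseudocount (95% exact interval for counting error 3.11 to 18.2). The selection used these same counts, so that this interval and those given below for other genes support nothing by themselves. NTN1, the better known netrin, fell in parental cells (edgeR log2 fold change -3.18 (SE 0.25), adjusted p = 3.62e-05) and was near 0.3 CPM in ρ0 cells. Of 23 tested integrins and laminins, 1 was called higher and 15 lower in parental cells (4.35% and 65.2%, beside 30.4% and 35.5% of all genes). In ρ0 cells 5 were called higher and 2 lower (21.7% and 8.70%, beside 19.2% and 22.1%). The 5 became 15 without ρ0 control replicate 1 and 3 without either ρ0 starved library. The 2 became 4 and 9 without ρ0 control replicates 1 and 2 and 0 without either ρ0 starved library, and the 1 became 3 without either ρ0 control.

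PLAT, which encodes tissue plasminogen activator, dropped in parental cells from 931 and 994 to 91.1 and 91.5 CPM, or 10.5-fold with 0.5 CPM added. In ρ0 cells PLAT measured 989.7 and 426 CPM in control and 1421 and 1474 CPM in starved libraries. The ρ0 rise of 2.04-fold therefore depended on control replicate 2, since against replicate 1 alone the log2 ratio was 0.55. PLAU, the urokinase gene of the same system, also fell in parental cells (edgeR log2 fold change -3.86 (SE 0.22), adjusted p = 1.19e-05), and was at 0.41 (SE 0.19) in ρ0 cells (adjusted p = 0.128). Of PLAT windows, 3.31% occurred in other genes.

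IGFBP1, a secreted protein that binds insulin-like growth factors and is known to rise when amino acids are scarce, rose in ρ0 cells from 32.4 and 33.5 to 165 and 153 CPM, or 4.76-fold. It fell in parental cells from 25.8 and 29.2 to 11.4 and 10.0 CPM. The control levels of the 2 lines were close, at means of 27.5 ± 2.42 CPM in parental and 32.9 ± 0.783 CPM in ρ0 cells (SD, n = 2). IGFBP3, another member of the family, was called higher in ρ0 cells (edgeR log2 fold change 2.07 (SE 0.25), adjusted p = 0.000813) and was at -0.47 (SE 0.24) in parental cells (adjusted p = 0.123).

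Genes of lysosomes and autophagy were also found. LAMP3, a lysosomal membrane glycoprotein induced by interferon and by stress of the endoplasmic reticulum, had the largest opposite response of the 32 genes by the smaller of its 2 log2 ratios, -2.57. It fell from 9.94 and 11.5 CPM to 1.34 and 1.43 CPM in parental cells and rose from 1.35 and 1.67 CPM to 35.5 and 33.1 CPM in ρ0 cells, 5.95-fold down and 17.3-fold up. Its order between the lines was exchanged, since the parental cells were the higher ones in full medium and the ρ0 cells after starvation. The fitted log2 fold changes were -2.78 (SE 0.16) and 4.58 (SE 0.16). Among 52 tested interferon-stimulated genes LAMP3 was the only one that edgeR called in opposite directions. In parental cells 3 of the 52 were called higher and 36 lower (5.77% and 69.2%, beside 30.4% and 35.5% of all genes), and in ρ0 cells 3 higher and 9 lower (5.77% and 17.3%, beside 19.2% and 22.1%). The 3 in ρ0 cells became 27 and 5 without ρ0 control replicates 1 and 2, and the 3 in parental cells became 6 without either. The 9 became 45 without ρ0 control replicate 2, and 2 and 3 without ρ0 starved replicates 1 and 2.

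ULK1, the kinase that starts autophagosome formation, fell from 44.2 and 45.2 to 19.0 and 17.5 CPM in parental cells. It was at 36.0 and 22.9 CPM in ρ0 control and 75.4 and 72.7 CPM in ρ0 starved cells. The direction held against either ρ0 control, with log2 ratios of 1.03 and 1.67. Its relative ULK2 was at 0 to 0.0375 CPM in parental libraries and at 6.77 to 9.02 CPM in ρ0 libraries, and was not called in either line by edgeR (adjusted p = 0.152 and 0.324). ATP6AP1L is a transcribed pseudogene in RefSeq, named for its similarity to an accessory subunit of the vacuolar proton pump. It fell from 4.42 and 4.69 to 2.14 and 1.64 CPM in parental cells. In ρ0 cells it rose from 2.91 and 4.18 to 8.22 and 7.72 CPM. ATP6AP1L left the selection without parental starved replicate 2 or ρ0 control replicate 1, and with other scalings of the library sizes.

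A further 3 of the 23 genes encode cytoskeletal or scaffold proteins. FHL1, a LIM-domain protein of muscle and of other adherent cells, fell 3.02-fold from 118 and 129.8 to 41.2 and 40.3 CPM in parental cells. In ρ0 cells FHL1 started lower, at 12.1 and 10.5 CPM, and reached 25.5 and 26.4 CPM. NEBL, the actin-binding protein nebulette, fell from 2.45 and 2.44 to 0.766 and 0.647 CPM and rose from 4.22 and 3.82 to 12 and 11.6 CPM. Both genes kept their direction against each ρ0 control library. PDE4DIP, a Golgi and centrosome scaffold, fell from 266 and 249 to 108 and 109 CPM in parental cells and rose from 92.1 and 81.6 to 175 and 179 CPM in ρ0 cells, and 15.7% of its windows occurred in other genes.

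Membrane proteins were mixed in their starting levels. B4GALNT3, a Golgi enzyme that adds N-acetylgalactosamine to glycans, fell from 14.6 and 15.1 to 4.86 and 5.31 CPM in parental cells and rose from 1.45 and 0.850 to 4.32 and 3.72 CPM in ρ0 cells. LRIG3, a leucine-rich repeat membrane protein, fell from 30.0 and 30.9 to 14.9 and 14.6 CPM and rose from 13.5 and 11.8 to 29.1 and 30.4 CPM. LRIG3 thus had nearly mirrored levels, with the starved ρ0 libraries at the height of the parental controls. GABBR1, a subunit of the metabotropic GABA receptor, changed by -1.17 and 1.05 on the log2 ratio scale.

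CLDN7, a claudin of epithelial tight junctions, was low in parental cells. It measured 1.26 and 1.72 CPM in parental control and 0.153 and 0.102 CPM in parental starved libraries, from 85 and 7 counts in all, a fall of 11.7-fold without a pseudocount (95% exact interval for counting error 5.43 to 29.9). In ρ0 cells CLDN7 was at 59.9 and 25.9 CPM in control and 91.0 and 89.2 CPM in starved libraries, so that control replicate 1 lay between replicate 2 and the starved cells. The claudin CLDN4 gave edgeR log2 fold changes of -0.65 (SE 0.25) in parental cells (adjusted p = 0.0503) and 0.84 (SE 0.24) in ρ0 cells (adjusted p = 0.0258), while CLDN1 was called higher in both lines, by 0.45 (SE 0.08) and 1.05 (SE 0.08).

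A further 3 genes of this direction are intracellular. KLHL24, a substrate receptor of cullin ubiquitin ligases, and YPEL2, a small zinc-binding protein, had widely spaced ρ0 controls, at 36.1 and 14.5 CPM for KLHL24 and 13.1 and 3.11 CPM for YPEL2. Their starved ρ0 libraries were at 66.6 and 65.6 CPM and 21.6 and 19.8 CPM, and both fell in parental cells, with log2 ratios of -1.09 and -1.39. Both genes left the selection without ρ0 control replicate 2, and KLHL24 also left it with other scalings of the library sizes. FAM129A, a stress-induced protein now named NIBAN1, fell 4.70-fold in parental cells, from 111 and 104 to 22.9 and 22.2 CPM, and rose 2.08-fold in ρ0 cells, from 123 and 99.7 to 232 and 233 CPM. The parental and ρ0 control levels of FAM129A were close, with a log2 difference of 0.05, and after starvation the ρ0 cells were higher by 3.34.

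Among the 9 genes that rose in parental and fell in ρ0 cells, ADGRV1 was the only one that stayed selected when each library was left out in turn. This very large adhesion receptor rose from 22.1 and 18.0 to 92.4 and 93.9 CPM in parental cells, or 4.56-fold. It fell from 5.57 and 5.95 to 2.13 and 2.34 CPM in ρ0 cells, or 2.29-fold. The fitted log2 fold changes were 2.38 (SE 0.12) and -1.29 (SE 0.15), and ADGRV1 was the only one of the 9 that stayed 2-fold in both lines for every starved library set against every control library. Its ρ0 means were low, at 5.76 CPM in control and 2.23 CPM in starved cells, and it left the selection with a pseudocount of 2 CPM.

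CCNE2, cyclin E2, which activates CDK2 at the start of S phase, rose from 11.9 and 11.1 to 33.8 and 32.9 CPM in parental cells. In ρ0 cells it was at 25.3 and 63.8 CPM in control and 16.1 and 17.7 CPM in starved libraries, with a log2 ratio of -0.57 against replicate 1 and -1.89 against replicate 2. Of the windows in its longest transcript, 48.2% also occurred in other genes on either strand, INTS8 above all. Reads there cannot be assigned to either gene by sequence alone, and whether the counting used the strand is not known. INTS8 itself fell in both lines (edgeR log2 fold changes -1.11 (SE 0.10) and -0.66 (SE 0.10)). Its direction was the reverse of that of CCNE2 in parental cells and the same as that of CCNE2 in ρ0 cells. The part of shared reads in the CCNE2 values was not tested. CCNE1, cyclin E1, was called higher in parental cells (0.56 (SE 0.16), edgeR adjusted p = 0.0161) and was at -0.19 (SE 0.16) in ρ0 cells (adjusted p = 0.366). The list of DNA replication and S phase genes held 43 tested genes. In parental cells 7 were called higher and 17 lower (16.3% and 39.5%, beside 30.4% and 35.5% of all genes), and in ρ0 cells 40 were called lower (93.0%, beside 22.1% of all genes). The 7 became 3 or 4 when a parental library was left out, 11 when either ρ0 control was, and 3 with total-count scaling. The 17 became 30 and 27 without ρ0 control replicates 1 and 2. In all, 4 list genes were called higher in parental and lower in ρ0 cells, and besides CCNE2 these were GINS3, CLSPN and UHRF1, replication or chromatin factors of S phase.

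Surface and secreted proteins followed. SLAMF7, a receptor of immune cells, rose from 13.2 and 13.0 to 79.3 and 81.1 CPM in parental cells, 5.94-fold with 0.5 CPM added. Its ρ0 controls were at 59.1 and 124 CPM and its ρ0 starved libraries at 40.6 and 41.8 CPM. Against ρ0 control replicate 1 alone the log2 ratio of SLAMF7 was -0.51, and SLAMF7 left the selection without replicate 2. ADAMTS1, a metalloprotease that cuts matrix proteoglycans, rose from 142 and 139 to 576 and 573 CPM in parental cells. In ρ0 cells ADAMTS1 was low, with 0.658 and 4.09 CPM in control and 0.806 and 0.792 CPM in starved libraries. Its ρ0 fall thus came from control replicate 2 alone, and without that library the log2 ratio was 0.17. Of 43 tested proteases and inhibitors, 13 were called higher and 21 lower in parental cells (30.2% and 48.8%, beside 30.4% and 35.5% of all genes) and 10 higher and 14 lower in ρ0 cells (23.3% and 32.6%, beside 19.2% and 22.1%). The 13 became 8 without any 1 of the parental libraries, the 10 became 19 without ρ0 control replicate 1, and the 14 became 7 and 6 without ρ0 starved replicates 1 and 2.

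KRT7 and SCNN1A are genes of simple epithelia. KRT7, a keratin of glandular cells, rose from 3.61 and 3.26 to 7.31 and 7.63 CPM in parental cells. Its ρ0 levels were far higher, at 692 and 1255 CPM in control and 414 and 412 CPM in starved libraries. Against ρ0 control replicate 1 alone the log2 ratio of KRT7 was -0.74. KRT7 left the selection without ρ0 control replicate 2, parental control replicate 2 or parental starved replicate 2. The keratins KRT8 and KRT19 were called lower in both lines, with edgeR log2 fold changes of -1.53 (SE 0.09) and -2.23 (SE 0.09) for KRT8, while KRT18 was called higher in parental (0.42 (SE 0.11)) and lower in ρ0 cells (-0.76 (SE 0.11)). SCNN1A, the α subunit of the epithelial sodium channel, rose from 1.06 and 0.90 to 2.34 and 2.90 CPM in parental cells and fell from 16.8 and 10.5 to 4.35 and 3.76 CPM in ρ0 cells. Of 33 tested epithelial and mesenchymal markers, 11 were called higher and 11 lower in parental cells (33.3% each), near the 30.4% and 35.5% of all genes. In ρ0 cells 13 were called higher (8 without ρ0 starved replicate 2) and 12 lower (39.4% and 36.4%, beside 19.2% and 22.1%).

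The other 3 of the 9 genes were low in parental cells. DOCK2, an activator of Rac best known from blood cells, rose from 1.42 and 1.69 to 4.48 and 4.33 CPM in parental cells and fell from 29.5 and 23.6 to 12.3 and 12 CPM in ρ0 cells. UCA1, a long noncoding RNA first described in bladder cancer, was at 0.0645 and 0.150 CPM in parental control and 0.727 and 0.818 CPM in parental starved libraries. These values rest on 6 and 43 counts, a rise of 7.45-fold without a pseudocount (95% exact interval for counting error 3.16 to 21.4). In ρ0 cells UCA1 fell from 85.8 and 111 to 32.2 and 33.8 CPM. PSG5, a pregnancy-specific glycoprotein of the placenta, rose from 14 to 109 counts in parental cells, 8.09-fold (4.62 to 15.3), and fell from 5.02 and 5.07 to 2.35 and 1.82 CPM in ρ0 cells. Since 26.4% of PSG5 windows occurred in other genes of the table, PSG9 above all, its counts are uncertain. Windows shared with other GENCODE 29 genes were also found in IL6 (22.4%), UCA1 (16.4%), CLDN7 (11.7%) and KRT7 (10.8%), nearly all of them with genes that the count table does not list.

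The lines were also compared with each other under each condition, as the log2 ratio of ρ0 to parental means with 0.5 CPM added. For 7 of the 9 genes the ρ0 controls were above the parental controls, and starvation brought the lines nearer together for these 7. In control medium the widest gap was that of KRT7, at 7.95 in control and 5.70 in starved cells. For ADAMTS1 and ADGRV1, which were higher in parental cells, starvation widened the gap, from -5.62 to -8.79 and from -1.71 to -5.10. Of the 23 genes, 6 were higher in ρ0 controls and 18 in ρ0 starved cells. The order of the lines was exchanged for 12 of them, as for LAMP3 (-2.48 to 4.21) and PLAT (-0.44 to 3.98). IL1B kept its order while the gap narrowed from -6.44 to -2.91. The direction of these shifts follows from the selection and supports nothing by itself.

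**Figure D4:**
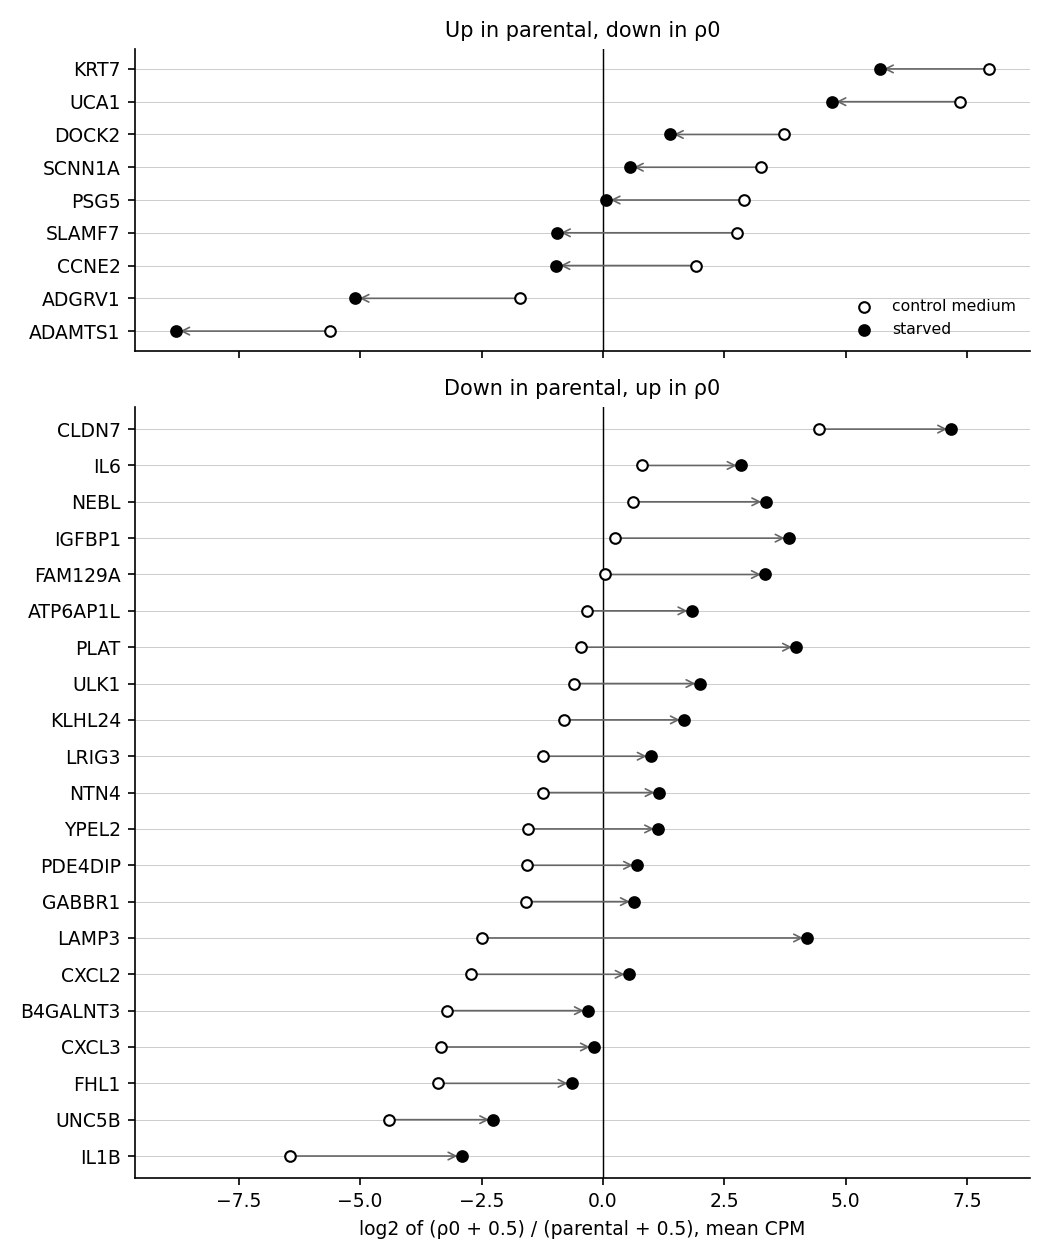
Log2 ratio of ρ0 to parental mean CPM (0.5 added) in control medium (open points) and after starvation (filled points), 1 row per gene. Arrows point to the left for the 9 genes in the upper panel and to the right for 21 of the 23 genes in the lower panel, and they cross 0 for 2 and 11 genes.

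Genes near the limit showed how narrow the boundary was. Just inside, the smaller log2 ratio was 1.07 for SCNN1A, 1.07 for UCA1 and 1.02 for KRT7 in parental cells. Just outside were TMEM40 (1.54 in parental and -0.997 in ρ0 cells), C4orf19 (0.98 and -1.12) and TIPIN (0.95 and -1.03). In the other direction LRIG3 (-1.02 in parental cells), IL6 and NTN4 were just inside. CTXN1 (-0.999 and 1.66), AMT (-2.32 and 0.99) and CXCL8 (-0.97 and 2.53) were just outside.

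The membership depended on single libraries, above all on the ρ0 controls. Of the 9 genes 1 stayed when each of the 8 libraries was left out in turn, and of the 23 genes 11 stayed. Among the latter were LAMP3, IL1B, B4GALNT3, CXCL2, IGFBP1, NEBL, ULK1, FHL1, UNC5B and LRIG3. Without ρ0 control replicate 1 the selection gave 19 and 70 genes, of which 8 and 22 were among the original 9 and 23. Without ρ0 control replicate 2 it gave 7 and 17 genes, of which 5 and 12 were original. Scaling by TMM effective library sizes in place of totals gave 12 and 21 genes, with 9 and 17 shared. That scaling moved the median log2 ratio of all genes in parental cells from -0.18 to -0.03. UNC5B and LRIG3, which stayed when each library was left out, were not selected under TMM, DESeq2 or upper quartile scaling. Every starved library set against every control library was at least 2-fold in both lines for 1 of the 9 and 9 of the 23.

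**Figure D5:**
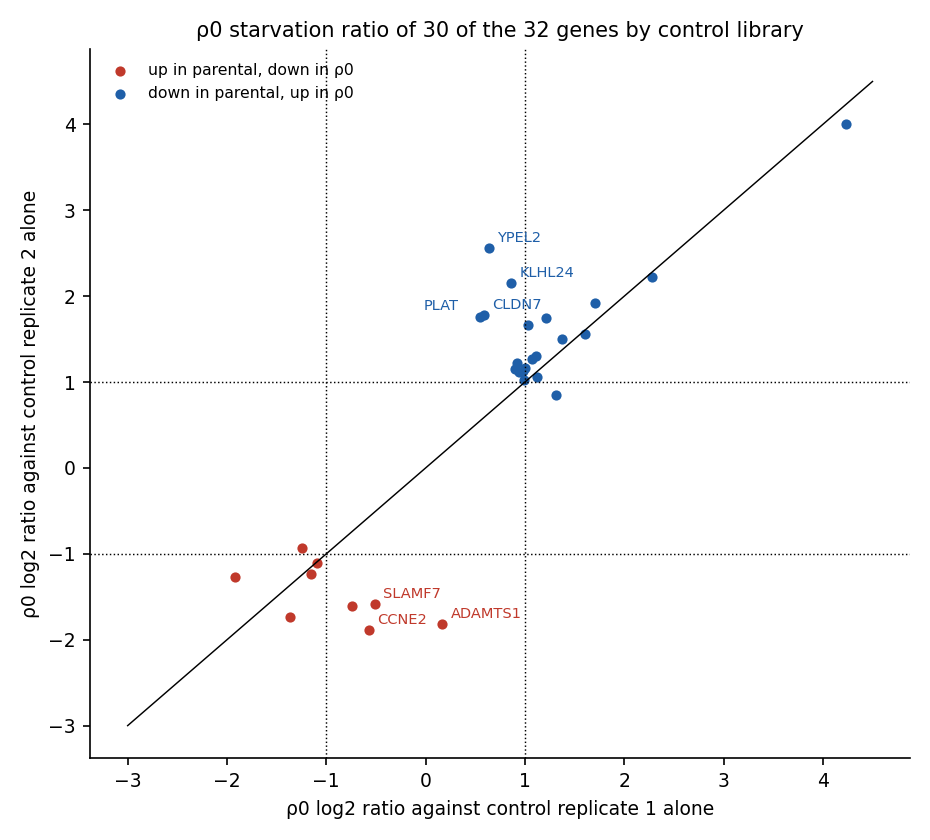
Log2 starvation ratio in ρ0 cells for 30 of the 32 genes, against control replicate 1 alone (x axis) and control replicate 2 alone (y axis), with the diagonal and dotted lines at 2-fold. Labelled genes differ by more than 0.9 between the axes, and ADAMTS1 changes sign, from 0.17 to -1.82.

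Promoter sequences of 300 bases, 250 before the start and 50 after it, were found for 18 of the 32 genes (3 of the 9 and 15 of the 23). These 18 genes had 41 windows, with a median GC content of 61.3%, against 58.7% over all 35116 windows. The NF-κB letters GGACTTTCC, GGAATTTCC or GGGATTTCC, on either strand as for all motifs, were in 1.22% of all windows and in those of CXCL2 and CXCL3. The interferon response letters GAAANNGAA were in 8.11% of all windows and in CXCL2, CXCL3, IL6 and CLDN7. AP-1 sites (TGACTCA or TGAGTCA) were in 4.95% of all windows and in FHL1, KLHL24 and NEBL. The CRE letters TGACGTCA were in 1.85% and in CLDN7 and GABBR1. An E-box (CACGTG, 7.26% of all windows) was in LRIG3, and TATAAA (11.5%) was in FHL1. The SMAD letters GTCTAGAC (0.202%), amino acid response letters TGATGCAAT, TGATGAAAC or TTGCATCA (1.09%) and E2F letters TTTCGCGC or TTTGGCGC (1.15%) were in none of the 41 windows. The 3 windows of the genes up in parental cells held none of these 9 motifs, which says only that the letters are not in those windows.

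Outside the 32 genes, 616 further genes of the 17 lists were tested. Of these, 11 (1.79%) were called higher in parental and lower in ρ0 cells and 20 (3.25%) lower in parental and higher in ρ0 cells, beside 1.65% and 1.99% over all genes tested (edgeR). Among the 20 were the collagens COL6A1 and COL6A2, the metallothioneins MT1X and MT2A, SMAD1 and SMAD3, transducers of BMP and TGF-β signals, and the MAPK phosphatase DUSP6. Among the 11 were FGF5, SNAI1, a repressor of epithelial genes, and SMAD9. Without ρ0 control replicate 1 these counts became 35 and 100, and without replicate 2 they became 25 and 39. Of the 32 genes 11 were in a list and 21 in none. The lists of mitosis genes and of integrated stress response targets held none of the 32. In parental and ρ0 cells, 34 and 33 of 40 mitosis genes were called lower (85.0% and 82.5%, beside 35.5% and 22.1% of all genes), and 36 and 37 of 41 stress response targets were called higher (87.8% and 90.2%, beside 30.4% and 19.2%).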

How the data were processed

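RNA was extracted with TRIzol and libraries were made with Illumina protocols. The authors deposited 1 table of whole-number read counts per gene for the 8 libraries. Per the labels the processing notes name Bowtie, Partek and the genome build hg19, and the counting rule, its strandedness and the tool versions are not given in the sources used here. No sample column was left unused (0). The 32 genes, the gene lists, the motifs and the relatives named were chosen with earlier results of these data known. Genes were named in full when the selection held without each library in turn, when they were in a list, or when they lay next to the limit. The others were named by group, and 2 of the 23 genes are not reported here.

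Counts were divided by library totals of 25259503 to 31022155, and averaged as CPM. A single edgeR 4.0.16 model (R 4.3.3) with TMM scaling and edgeR's own expression filter covered the 8 libraries, each of the 4 groups having its mean, and genes were tested by quasi-likelihood (4 residual degrees of freedom, biological coefficient of variation 12.4%). P-values were adjusted by Benjamini-Hochberg over 15262 genes. Intervals cover counting error only, and the selection had used the same counts, so that their distance from 1 supports nothing. The genes with an interval (UNC5B, CLDN7, UCA1 and PSG5) were below 2 CPM in that line and reached the minimum through the other line. Alternatives were other scalings, pseudocounts, minimum levels and fold limits, no filter on low counts, DESeq2 1.42.0, limma-voom (limma 3.58.1), a replicate block and leaving out each library. Promoters came from RefSeq (GRCh38.p14), matched by symbol for all 32 genes with 1 older symbol, and transcript windows from GENCODE 29. Windows were matched on either strand, so that the shared percentages include overlaps with genes on the opposite strand. Sequences were aligned with Biopython 1.88. Ratios, counts and plots were made in Python 3.11.15 with pandas 2.3.3, scipy 1.17.1 and matplotlib 3.10.9. Same-numbered libraries were not treated as pairs in the main model.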

Additional observations from a re-analysis of the deposited data

Results flagged for a closer look

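For 8 of the 9 genes up in parental and down in ρ0 cells, and for 23 of the 23 genes of the reverse direction, every starved library lay beyond every control library in each line, on opposite sides in the 2 lines. Over the 13131 genes with enough counts this held for 5.86% and 7.9%, and the 2-fold selection in both lines largely fixes it for the members. These genes were drawn for a closer look because the lines moved against each other. The difference between the lines was not tested, since the selection had already used it. The ρ0 control libraries were widely spaced (23.2% of genes over 1.5-fold apart), and some ρ0 ratios differed by control library. For YPEL2 the ρ0 log2 ratio was 0.64 against control replicate 1 and 2.56 against replicate 2. For LAMP3 it was 4.23 and 4.01. The part of this spacing in the result was not tested.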

How the results depend on the processing

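The number of genes up in parental and down in ρ0 cells (9) and of the reverse direction (23) followed the settings of the selection. A pseudocount of 0.1 CPM gave 22 and 37 genes and one of 2 CPM gave 2 and 14. A limit of 1.5-fold gave 76 and 130, and a limit of 3-fold gave 0 and 2. Requiring 2-fold in every pair of libraries gave 1 and 9. Leaving out each library gave 7 to 19 and 17 to 70. Scaling by TMM, DESeq2 size factors or upper quartile and minimum levels of 0, 5 or 10 CPM kept both counts within 1.5 times. Of the 9 genes, the number called in both lines was 8 under 7 other fits and 5 to 9 with a library left out (5 without either ρ0 starved library), and of the 23 it was 18 to 23 over all fits and left-out libraries. With a replicate block it was 8 and 22, and list genes called in opposite directions were 11 and 22. Correlations of the deviations of same-numbered libraries ran from -0.05 to 0.06. Since most deviations within a group were small, these values cannot tell whether same-numbered libraries shared a culture or batch. List genes outside the 32 that were called higher in parental and lower in ρ0 cells numbered 11, 7 with upper quartile scaling, 6 with total counts and 5 to 35 with a library left out. Those of the reverse direction numbered 20, and 11 to 100 with a library left out. Of 360 list counts under alternatives, 38 moved by more than 1.5 times. The number of genes with the lines nearer together after starvation was 18, and 17 or 18 under the alternatives. Of 832 log2 ratios of single genes, 720 moved by less than the replicate spread and 111 by more. Leaving out 1 of 2 libraries nearly fixes a shift below that spread, so these settings say little about stability. In each of them 0 of 64 ratios moved by more. Under TMM, DESeq2 and upper quartile scaling, 24, 27 and 22 of 64 moved by more. With pseudocounts of 0.1 and 2 CPM, 13 and 25 did. The log2 ratio of ADAMTS1 in ρ0 cells changed sign, to 0.17 without ρ0 control replicate 2 and -1.82 without replicate 1. Its control values there were 19 and 125 counts. The cause of these changes was not tested. With 2 libraries a group and low counts for UCA1, PSG5, UNC5B, CLDN7 and ADAMTS1 in 1 line, the depth limits their ratios.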
